A study of Rattus norvegicus with 15 samples.

Results

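The genes described here encode 10 neuropeptide precursors, the larger proteins from which neurons cut the peptides that they release: *Npy*, *Tac1*, *Pnoc*, *Sst*, *Penk*, *Pdyn*, *Cck*, *Vip*, *Crh* and *Adcyap1*. They were found by gene symbol in the platform's annotation, with the brightest probe set over all 15 arrays to be kept for each gene. Each of the 10 had a single probe set, and they are 10 of the 14506 genes measured under a name on arrays of 29214 probe sets. RNA came from the inferior colliculus (IC) of male rats 12 weeks old. The Wistar Audiogenic Rat (WAR), bred at the School of Medicine of Ribeirão Preto, has seizures when it hears a loud sound, and the Wistar albino rats bought from Charles River served as controls, so strain and supplier cannot be told apart. By the label of each sample, 5 arrays were of WAR rats exposed to the sound (WAR S), 2 of Wistar rats exposed to it (Wistar S), 4 of WAR rats with no exposure (WAR N) and 4 of Wistar rats with no exposure (Wistar N). Tissue of the stimulated rats was taken 60 min after the sound by the study's methods, while the protocol text counts the 60 min from the seizures. By the methods, sound brought on seizures in WAR S and none in Wistar S, so strain and seizure cannot be told apart in the stimulated comparison. The general protocol text speaks of stimulation for all animals, whereas the labels of the naïve arrays name none, and the groups here are those of the labels. The question was whether these genes differ between WAR and Wistar rats after sound, and whether they already do without it.

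Neuropeptide precursors enter the secretory pathway, are cut by prohormone convertases and trimmed by carboxypeptidases, and the peptides are stored in dense core vesicles. They act on G protein-coupled receptors, mostly more slowly than the fast transmitters with which they share a neuron. Several of these genes mark subsets of GABAergic neurons, and the transcription of some is known to follow neuronal activity through the cAMP response element. Neuropeptide Y and the opioid peptides, among others, have long been studied in seizures. In tissue RNA, fewer cells of a type and less RNA in each cell cannot be told apart.

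The promoters of *Npy*, *Tac1* and *Sst* are shown because *Npy* and *Tac1* had the largest differences between stimulated WAR and Wistar rats and *Sst* had a small one. Each stretch holds 250 bases before and 50 bases after the annotated start, on the plus strand of the RefSeq assembly GRCr8, at chr4:80211861-80212160 for *Npy*, chr4:36645333-36645632 for *Tac1* and chr11:90461296-90461595 for *Sst*. Capitals mark the matches to the motifs searched.
Npy: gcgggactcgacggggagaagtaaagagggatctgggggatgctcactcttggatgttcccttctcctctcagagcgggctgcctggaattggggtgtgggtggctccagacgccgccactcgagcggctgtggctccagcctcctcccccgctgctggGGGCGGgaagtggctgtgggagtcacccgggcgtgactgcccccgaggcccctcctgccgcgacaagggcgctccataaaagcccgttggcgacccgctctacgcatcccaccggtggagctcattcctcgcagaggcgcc
Tac1: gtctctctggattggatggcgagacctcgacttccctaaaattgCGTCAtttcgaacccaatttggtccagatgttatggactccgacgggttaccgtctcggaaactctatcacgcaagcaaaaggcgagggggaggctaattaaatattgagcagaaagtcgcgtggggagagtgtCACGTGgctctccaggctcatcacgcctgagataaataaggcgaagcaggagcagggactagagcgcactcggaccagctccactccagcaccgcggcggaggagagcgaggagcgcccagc
Sst: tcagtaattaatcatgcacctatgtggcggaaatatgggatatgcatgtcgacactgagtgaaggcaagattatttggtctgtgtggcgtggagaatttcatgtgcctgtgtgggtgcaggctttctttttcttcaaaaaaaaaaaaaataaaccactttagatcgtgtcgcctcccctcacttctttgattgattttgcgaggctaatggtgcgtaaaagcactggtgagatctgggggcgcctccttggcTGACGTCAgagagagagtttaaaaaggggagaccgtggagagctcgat
The motifs, read on both strands, were the cAMP response element TGACGTCA, its 5-base core TGACG (contained in the full element), the E-box CACGTG, the GC box GGGCGG and the TATA box TATAAA. *Sst* held the full cAMP response element, 3 bases into the transcribed part as annotated, which 1.83% of 33469 promoters of the same length held. *Tac1* held the core on the other strand at position -206 (21.2% of promoters) and an E-box at -72 (6.42%). *Npy* held a GC box at -91 (33.1%). Of the 10 genes, 6 had a promoter in the table used. These matches describe letters only.

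Values are log2 signals made with RMA, on which a difference of 1 is a 2-fold change. Stimulated and naïve arrays were taken as normalized apart, which no source used here states. Any of the 21 pairs of stimulated arrays shared 2675 to 3286 probe sets of exactly equal value, the 28 pairs of naïve arrays shared 2 to 13, and none of the 56 pairs of a stimulated with a naïve array shared any (0 probe sets). Strains were therefore compared within stimulated and within naïve arrays only, and levels are not set across them. Wistar N replicate 1 stood apart. It correlated with the other Wistar N arrays at r = 0.956 to 0.964 across genes, against 0.990 to 0.992 among those 3, and with the WAR N arrays at 0.981 to 0.988. Naïve results are therefore also given without it. It enters the stimulated comparison too, through the spread that limma estimates over all 4 groups. WAR S replicate 4 also differed from its group. A gap test for small groups sets the gap of 1 array against the range of its group, so it can flag small distances. By it, 856 genes (5.90%) set this array apart from the other WAR S arrays, against 408 to 597 for each of those. Its median deviation from the others over genes was 0.081, against 0.062 to 0.067 for each of those. The serotonin neuron genes *Tph2* (9.94, against 5.79 to 5.98 in the other 4) and *Slc6a4* (7.62, against 6.03 to 6.20) were high in it alone. Stimulated results are therefore also given without it. Markers of the tissue were bright, with a mean log2 value of 11.12 for *Slc17a6* (the glutamate transporter of midbrain neurons) and 11.04 for *Gad2* (which makes GABA) in WAR S, against 11.11 and 10.75 in Wistar S. Means of the cerebellar marker *Gabra6* were 5.57 in WAR S and 6.26 in Wistar S, a difference of -0.68 (adjusted p = 0.0756 from limma). The cerebellar markers *Pcp2*, *Cbln3* and *Fat2* differed less, by -0.27, -0.06 and -0.0009.

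In the IC of stimulated rats, the transcripts of *Tac1*, *Npy*, *Adcyap1*, *Penk* and *Pnoc* had higher values in WAR S than in Wistar S, by 0.66 to 1.08 on the log2 scale, and those of *Sst*, *Vip*, *Crh*, *Cck* and *Pdyn* differed by at most 0.19. Against all 14506 genes, 0 of 10 passed an adjusted p of 0.05, where 0.414% of all genes passed. At an unadjusted p under 0.05 there were 5 of 10, against 6.85% of all genes. The 10 genes were chosen with earlier results of these data known, so their counts against all genes describe them and do not test the set. All 10 differences were positive, as were 55.5% of those of all genes, and their median was 0.43, against 0.01 for all genes. In 7 of 10 genes every WAR S array lay above both Wistar S arrays, which was so for 12.4% of all genes. Without Wistar N replicate 1 in the model, the differences were the same and 4 of 10 passed (*Tac1*, *Npy*, *Pnoc* and *Penk*), against 1.8% of all genes. Fitted to WAR S and Wistar S alone, 3 passed (*Tac1*, *Npy* and *Penk*), against 1.89% of all genes. Without WAR S replicate 4, the same 5 genes led, by 0.60 to 1.05, the differences of the others were at most 0.26, and 0 of 10 passed (adjusted p = 0.135 for *Tac1* and 0.218 for *Npy*), against 0.345% of all genes.

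**Figure D1:**
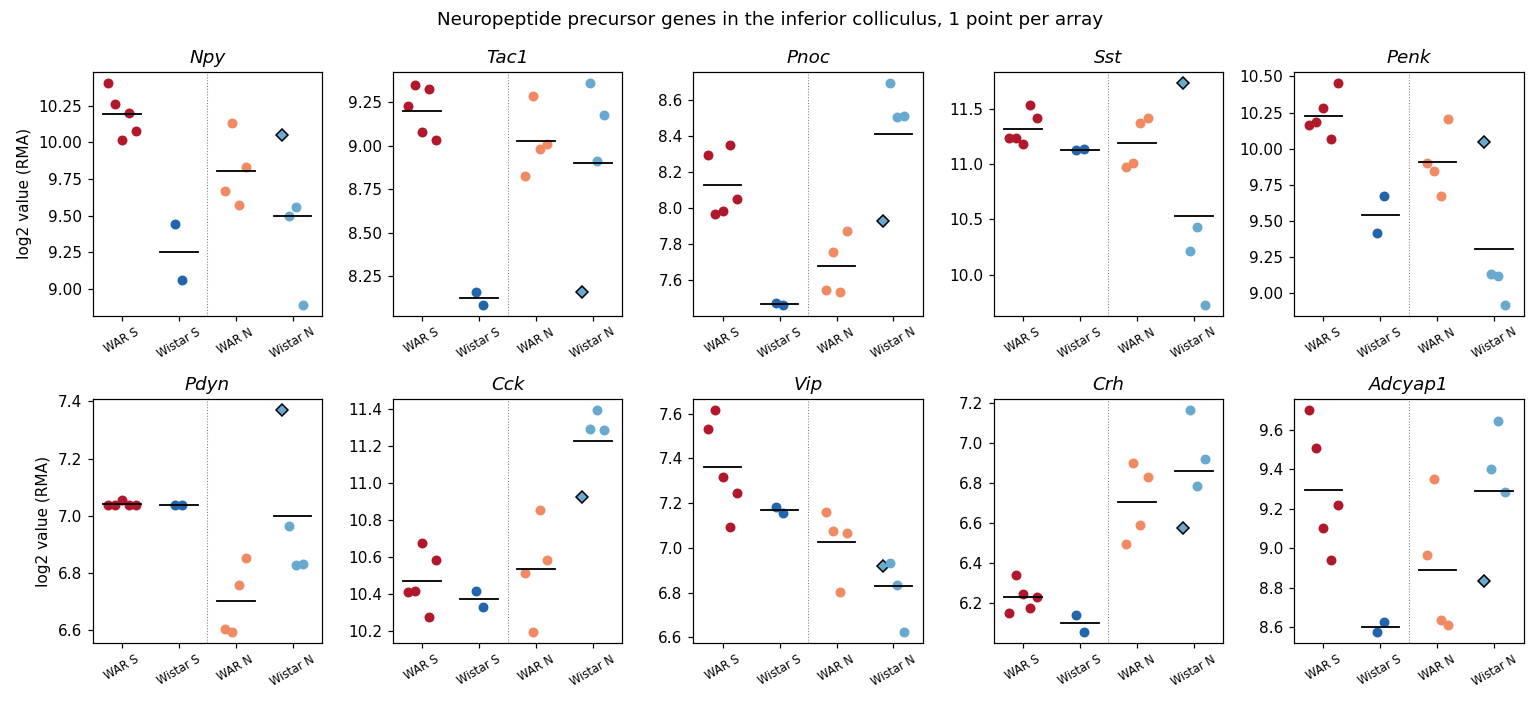
Log2 value (vertical axis, RMA) of the 10 precursor genes in each array, with 1 point per array, grouped as WAR S, Wistar S, WAR N and Wistar N from left to right. Bars are group means, the dotted line parts stimulated from naïve arrays, taken as normalized apart, and the diamond is Wistar N replicate 1. In *Npy*, *Tac1* and *Pnoc* the 5 WAR S points are all higher than the 2 of Wistar S, while in *Pnoc* and *Cck* all 4 WAR N points lie below all 4 Wistar N points.

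*Npy* (probe set 10855506) encodes neuropeptide Y, a peptide that dampens transmitter release through its Y receptors. Its log2 values were 10.40, 10.26, 10.02, 10.20 and 10.08 in WAR S, against 9.44 and 9.06 in Wistar S. The groups did not overlap, and the lowest WAR S array lay 0.57 above the higher Wistar S array. The difference was 0.94 (standard error 0.23, 95% confidence interval 0.44 to 1.44), a 1.92-fold ratio, with an unadjusted p of 0.00116 and an adjusted p of 0.130 from limma. An exact two-sided permutation test over the 7 arrays gave p = 0.0476, the smallest that its 21 splits allow. The adjusted p was 0.0186 without Wistar N replicate 1 and 0.0332 without Wistar N replicate 4, and the test did not pass without any one of the other 13 arrays (adjusted p up to 1). The descriptions carry numbers by which the arrays fall into 2 label sets, the first with Wistar S replicates 1 and 2 and, of WAR S, replicates 1, 2 and 5, and the second without Wistar S. That they are batches is stated nowhere in the sources used here. Within the first set, the *Npy* difference was 1.00 (adjusted p = 0.527).

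Without sound, the 2 strains overlapped in *Npy*. Its log2 values were 9.67, 10.13, 9.57 and 9.83 in WAR N, against 10.05, 9.50, 9.56 and 8.90 in Wistar N. Replicates 1 and 4 of Wistar N were the extremes of their group, and the first of them was above 3 of 4 WAR N arrays. The difference was 0.30 (standard error 0.20, adjusted p = 0.300), and 0.48 (adjusted p = 0.0318) without Wistar N replicate 1. Without Wistar N replicate 4 it was 0.0990 (adjusted p = 0.722). The strain effect in stimulated arrays minus that in naïve arrays was 0.64 (95% confidence interval -0.01 to 1.29, adjusted p = 0.342), and this test of the 2 settings did not pass.

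*Tac1* (probe set 10853683), which encodes substance P and neurokinin A, excitatory peptides of the tachykinin family, had the largest stimulated difference of the 10. Its log2 values were 9.23, 9.35, 9.08, 9.33 and 9.03 in WAR S, against 8.16 and 8.09 in Wistar S. The 5 WAR S arrays lay within 0.32 of each other, and every one was at least 0.87 above both Wistar S arrays. The difference was 1.08 (standard error 0.23, 95% confidence interval 0.58 to 1.58), a 2.11-fold ratio. *Tac1* alone among the 10 passed a fold change of at least 2 with an unadjusted p of at most 0.05, as 0.269% of all genes did. Its adjusted p was 0.0653, and it was 0.000798 without Wistar N replicate 1 and 0.0421 without Wistar N replicate 2. It did not pass without any one of the other 13 arrays (adjusted p up to 0.719). The permutation p was 0.0476, again the smallest possible, and the difference within the first label set was 1.08 (adjusted p = 0.343).

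In naïve rats the 2 strains overlapped in *Tac1*. Its log2 values were 8.83, 9.28, 8.98 and 9.01 in WAR N, against 8.16, 9.36, 8.91 and 9.18 in Wistar N. Wistar N replicate 1 was the low array, and the other 3 fell among the WAR N values or just above them. The difference was 0.12 (95% confidence interval -0.30 to 0.55, adjusted p = 0.702), and it was -0.13 (adjusted p = 0.435) without that array. The stimulated minus the naïve strain effect was 0.96 (standard error 0.31, adjusted p = 0.172). Without that array it was 1.21 and passed (adjusted p = 0.000402).

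*Pnoc* (probe set 10784546), the precursor of nociceptin, an opioid-like peptide that inhibits neurons through its own receptor, lay above Wistar in every stimulated WAR array and below it in every naïve one. In stimulated rats its log2 values were 8.29, 7.97, 7.98, 8.35 and 8.05 in WAR S, against 7.47 and 7.46 in Wistar S. In naïve rats they were 7.54, 7.76, 7.54 and 7.87 in WAR N, against 7.92, 8.69, 8.50 and 8.51 in Wistar N. The groups overlapped in neither setting, and the order of the strains was opposite in the 2. Such a pattern, with all WAR S above Wistar S and all WAR N below Wistar N, was found in 37 genes, 0.255% of all.

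The stimulated *Pnoc* difference was 0.66 (standard error 0.17, adjusted p = 0.164), with a permutation p of 0.0476. It passed without Wistar N replicate 1 (adjusted p = 0.0133) but not without any one of the other 14 arrays (adjusted p up to 1). In naïve rats the difference was -0.73 (standard error 0.15, adjusted p = 0.00430), with an exact permutation p of 0.0286, the smallest that 70 splits allow, and it passed without any single one of the 15 arrays. It was -0.89 (adjusted p = 2.08e-05) without Wistar N replicate 1. Within label sets the naïve difference was -0.57 in the first (adjusted p = 0.202) and -0.89 in the second (adjusted p = 0.0103). *Pnoc* was the only one of the 10 whose strain effect passed the test of a difference between stimulated and naïve arrays, by 1.39 (standard error 0.23, adjusted p = 0.0430), where 0.103% of all genes passed. That call was lost without any of 12 of the 15 arrays (adjusted p = 0.0615 to 0.254) and kept without Wistar N replicate 1 or 4 or WAR N replicate 4, while the value stayed between 1.30 and 1.55. Without Wistar N replicate 1 it passed for 5 of the 10 (*Tac1*, *Pnoc*, *Cck* and *Adcyap1* with a positive and *Sst* with a negative value), against 20.4% of all genes.

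Over all 10 genes in naïve rats, 3 passed, *Penk* higher and *Pnoc* and *Cck* lower in WAR N, against 20.9% of all genes (11.6% higher and 9.38% lower). A count of 3 in 10 is close to that background. The median of the 10 differences was -0.02, against 0.02 for all genes. Only *Pnoc* and *Cck* had groups that did not overlap, both with WAR N below Wistar N, as 5.51% of all genes had. Without Wistar N replicate 1, 6 passed, *Npy*, *Sst* and *Penk* higher and *Pnoc*, *Cck* and *Adcyap1* lower, against 41.1% of all genes.

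**Figure D2:**
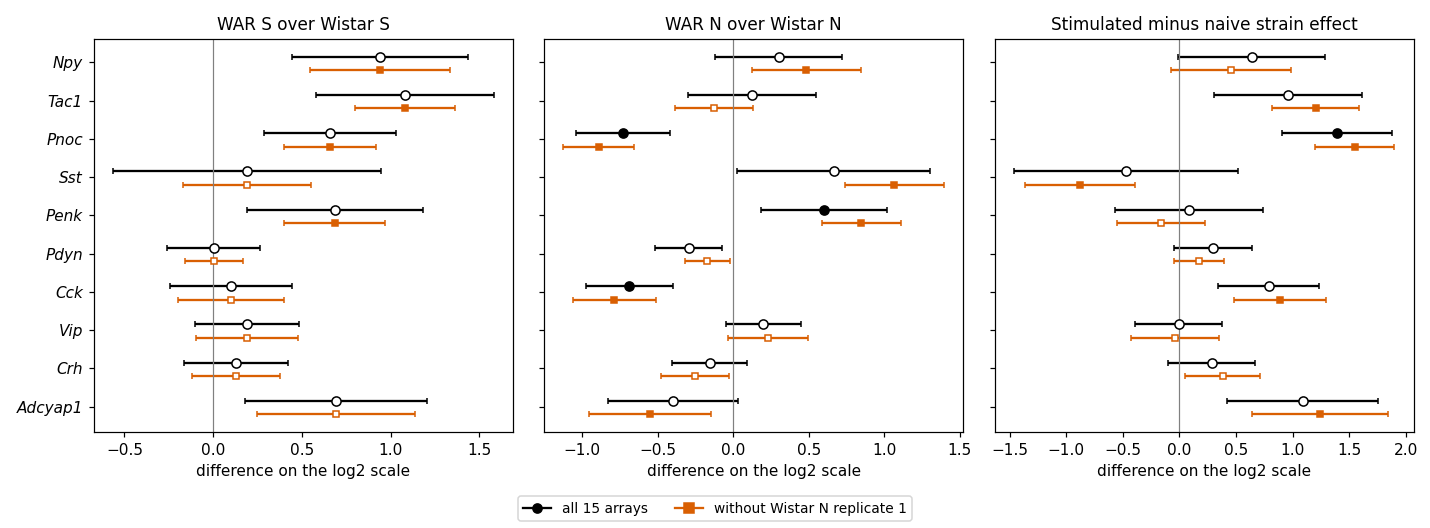
Difference between strains (horizontal axis, log2 scale) for the 10 precursor genes in stimulated arrays (WAR S over Wistar S), in naïve arrays (WAR N over Wistar N), and the stimulated minus the naïve strain effect, with 95% confidence intervals from limma. Circles are the fit of all 15 arrays, squares the fit without Wistar N replicate 1, and filled symbols an adjusted p under 0.05. *Pnoc* lies to the right of 0 in stimulated and to the left of 0 in naïve arrays, and in stimulated arrays only the squares of *Npy*, *Tac1*, *Pnoc* and *Penk* are filled.

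*Penk* (probe set 10875300), the precursor of the enkephalins, opioid peptides that act on delta and mu receptors, had higher means in WAR than in Wistar rats in both settings, and the naïve difference passed. Its log2 values were 10.16, 10.18, 10.28, 10.07 and 10.45 in WAR S, against 9.41 and 9.67 in Wistar S. In naïve rats they were 9.90, 9.84, 9.67 and 10.21 in WAR N, against 10.04, 9.14, 9.12 and 8.92 in Wistar N. All WAR S arrays lay above both Wistar S arrays, and all WAR N arrays lay above the Wistar N arrays other than replicate 1. The stimulated difference was 0.68 (standard error 0.23, adjusted p = 0.384, permutation p = 0.0476), and it passed without Wistar N replicate 1 (adjusted p = 0.0182) but not without any one of the other 14 arrays. The naïve difference was 0.60 (standard error 0.20, adjusted p = 0.0429), with an exact permutation p of 0.114. Fitted to WAR N and Wistar N alone, it did not pass (adjusted p = 0.148 from limma). The call was lost without any of 13 of the 15 arrays (adjusted p = 0.0501 to 0.127), among them the stimulated arrays, which enter only through the spread, and kept without Wistar N replicate 1, where the difference was 0.85 (adjusted p = 7.97e-05), or WAR N replicate 3. The effects in the 2 settings differed by 0.08 (95% confidence interval -0.57 to 0.74).

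*Pdyn* (probe set 10849857), the precursor of the dynorphins, which act on kappa receptors, had almost the same value in all arrays after sound. Of the 7 stimulated arrays, 6 held the same log2 value, 7.04, and WAR S replicate 3 held 7.06. In naïve rats the values were 6.60, 6.60, 6.76 and 6.85 in WAR N, against 7.37, 6.96, 6.83 and 6.83 in Wistar N. WAR N replicate 4 reached into the Wistar N range, and the highest value was again that of Wistar N replicate 1. The naïve difference was -0.30 (standard error 0.10, adjusted p = 0.0565), and -0.17 (adjusted p = 0.0604) without that array. It passed after cyclic loess (-0.35, adjusted p = 0.0161) and after quantile normalization of all arrays (-0.38, adjusted p = 0.0124).

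*Sst* (probe set 10751945) encodes somatostatin, an inhibitory peptide that marks a class of GABAergic neurons. Its log2 values were 11.23, 11.23, 11.18, 11.54 and 11.42 in WAR S, against 11.12 and 11.14 in Wistar S. Although the 2 groups did not overlap, they were close, and the difference was 0.19 (95% confidence interval -0.57 to 0.95, permutation p = 0.0952). Without Wistar N replicate 1 in the model, the interval was -0.17 to 0.55. Naïve values were 10.98, 11.01, 11.37 and 11.42 in WAR N, against 11.73, 10.22, 10.43 and 9.73 in Wistar N. Wistar N replicate 1 held the highest value of the 8 naïve arrays and the other 3 Wistar N arrays the lowest. The difference was 0.66 (standard error 0.30, adjusted p = 0.129) with it and 1.07 (adjusted p = 7.95e-05) without it, but 0.40 (adjusted p = 0.351) without Wistar N replicate 4. It was 0.26 in the first label set (adjusted p = 0.862) and 1.07 in the second (adjusted p = 0.00305), which does not hold Wistar N replicate 1.

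*Cck* (probe set 10921030), the precursor of cholecystokinin, a peptide of many excitatory and some inhibitory neurons, was lower in naïve WAR rats, while the stimulated groups overlapped. Its log2 values in naïve rats were 10.51, 10.19, 10.86 and 10.58 in WAR N, against 10.92, 11.29, 11.39 and 11.29 in Wistar N. Every WAR N array lay below every Wistar N array, with WAR N replicate 3 just under Wistar N replicate 1. The difference was -0.69 (standard error 0.13, adjusted p = 0.00381, permutation p = 0.0286), it passed without any single one of the 15 arrays, and it was -0.79 (adjusted p = 0.000213) without Wistar N replicate 1. It was -0.75 in the first label set (adjusted p = 0.0712) and -0.62 in the second (adjusted p = 0.0301). Stimulated values ran from 10.27 to 10.68 in WAR S, around the 10.41 and 10.33 of Wistar S, a difference of 0.10 (95% confidence interval -0.24 to 0.44). The 2 strain effects differed by 0.79 (adjusted p = 0.124), and by 0.89 (adjusted p = 0.00438) without Wistar N replicate 1.

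*Adcyap1* (probe set 10930539) encodes PACAP, a peptide that raises cAMP and is made mostly by excitatory neurons, and *Vip* (probe set 10702706) encodes its relative, the vasoactive intestinal peptide. The log2 values of *Adcyap1* were 9.70, 9.51, 9.11, 8.94 and 9.22 in WAR S, against 8.58 and 8.63 in Wistar S. WAR S replicates 1 and 2 were the highest, and no WAR S array reached down to Wistar S. The difference was 0.69 (standard error 0.24, adjusted p = 0.401, permutation p = 0.0952). In naïve rats the values were 8.97, 9.35, 8.64 and 8.61 in WAR N, against 8.83, 9.40, 9.65 and 9.28 in Wistar N. These groups overlapped, and the difference was -0.40 (adjusted p = 0.177), or -0.55 (adjusted p = 0.0301) without Wistar N replicate 1. The naïve difference was 0.10 in the first label set and -0.90 (adjusted p = 0.00304) in the second. The stimulated minus the naïve effect was 1.09 (adjusted p = 0.137), or 1.24 (adjusted p = 0.00621) without Wistar N replicate 1. *Vip* ran from 7.09 to 7.62 in WAR S, against 7.18 and 7.16 in Wistar S, a difference of 0.19 (95% confidence interval -0.10 to 0.48). It ran from 6.80 to 7.16 in WAR N, against 6.62 to 6.93 in Wistar N, a difference of 0.20 (95% confidence interval -0.05 to 0.45).

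*Crh* (probe set 10822460), which encodes the corticotropin-releasing hormone of the stress response, differed little. Its values ran from 6.15 to 6.34 in WAR S, against 6.14 and 6.06 in Wistar S, a difference of 0.13 (95% confidence interval -0.16 to 0.42) between groups that did not overlap. They ran from 6.50 to 6.90 in WAR N, against 6.58 to 7.16 in Wistar N, a difference of -0.16 (95% confidence interval -0.41 to 0.09). The signals of *Crh*, *Vip* and *Pdyn* were low. In every array they lay below the median over genes, which was 7.79 to 7.88 in stimulated and 7.65 to 7.70 in naïve arrays. Small differences at such signals do not show that expression was equal.

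Seen over the naïve Wistar arrays, replicate 1 was on the other side of the WAR N mean from the remaining 3 arrays for *Npy*, *Sst*, *Penk*, *Crh* and *Adcyap1*. It was the highest of the 4 for *Npy*, *Sst*, *Penk* and *Pdyn* and the lowest for *Tac1*, *Pnoc*, *Cck*, *Crh* and *Adcyap1*. Over all genes, 894 (6.16%) set this array apart from the other 3 by the same gap test, against 75 to 151 for each of those 3. Whether it is a naïve Wistar sample as labelled was not tested.

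**Figure D3:**
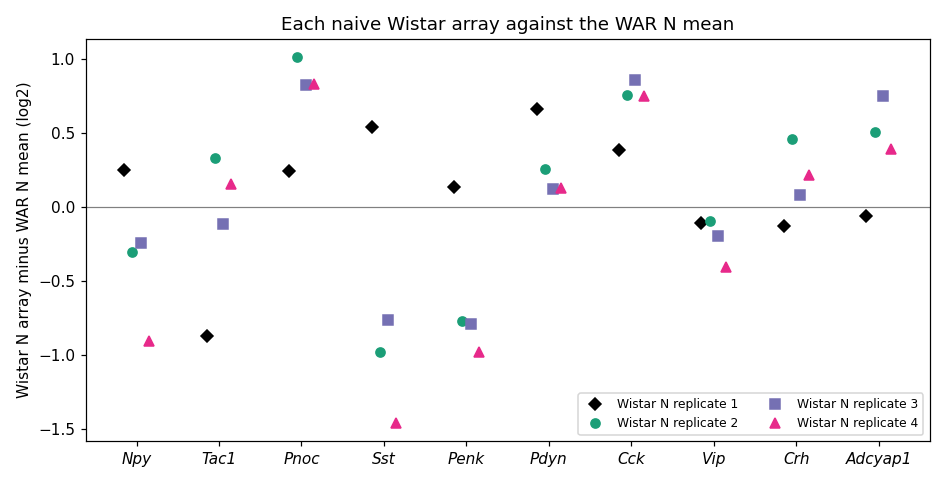
Value of each naïve Wistar array minus the WAR N mean (vertical axis, log2 scale) for the 10 precursor genes, with a symbol for each of the 4 Wistar N arrays and a line at the WAR N mean. Replicate 1 (diamonds) lies above the line for *Sst*, at 11.73 against a WAR N mean of 11.19, while the other 3 lie below it.

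Several of the genes varied together over the arrays. After the mean of the stimulated or of the naïve arrays had been taken off, the highest Pearson correlations among the 10 over 15 arrays were those of *Sst* with *Penk* (r = 0.80), *Npy* with *Penk* (0.76) and *Pnoc* with *Adcyap1* (0.70), and the lowest that of *Sst* with *Cck* (-0.57). Without Wistar N replicate 1 these were 0.78, 0.74, 0.70 and -0.69. Other pairs moved more without it. *Pdyn* with *Cck* went from 0.42 to 0.75, *Npy* with *Tac1* from 0.44 to 0.71 and *Sst* with *Pdyn* from 0.25 to -0.42. By the same measure over all 15 arrays, the genes most like *Npy* among all 14506 were *Cuta* (0.92), *Mrrf* (0.90), *Mt1* (0.90), *Rnasek* (0.89) and *Zdhhc22* (0.89). Those most like *Tac1* were *Nsmce4a* (0.95), *Exoc6* (0.92), *Sephs2* (0.90), *Pcdh20* (0.90) and *Nap1l1* (0.87). The arrays share strain, setting and normalization, so these values are descriptions.

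Among the receptors of these peptides and a binding protein of *Crh*, 0 of 21 measured passed in stimulated rats, against 0.414% of all genes. At an unadjusted p under 0.05 there were 2, against 6.85% of all genes. In naïve rats 6 of 21 passed, 4 higher and 2 lower in WAR N, against 20.9% of all genes (11.6% higher and 9.38% lower). With all arrays this count is near that background. Without Wistar N replicate 1, 13 of 21 passed, 8 higher and 5 lower, against 41.1% of all genes. The smallest p after sound was that of *Sstr2*, a somatostatin receptor, with means of 8.02 in WAR S and 7.51 in Wistar S, a difference of 0.52 (standard error 0.14, adjusted p = 0.200, and 0.0493 without Wistar N replicate 1). *Tacr1*, the receptor of substance P, had means of 8.54 in WAR S and 8.12 in Wistar S (adjusted p = 0.748). *Cckar*, *Crhr1* and *Crhr2* were not measured under a name.

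*Adcyap1r1*, the main receptor of PACAP, had log2 values of 9.25, 9.42, 9.24 and 9.16 in WAR N, against 9.69, 9.95, 10.22 and 9.78 in Wistar N. All 4 WAR N arrays lay below all Wistar N arrays, replicate 1 included, and the difference was -0.64 (standard error 0.10, adjusted p = 0.00150). *Oprk1*, the kappa receptor on which dynorphins act, held 8.58, 8.98, 8.58 and 8.41 in WAR N, against 7.95, 8.02, 8.17 and 7.99 in Wistar N. It was higher in every WAR N array, by 0.61 (standard error 0.14, adjusted p = 0.00903). *Sstr4*, a somatostatin receptor, was likewise higher without overlap, by 0.54 (standard error 0.12, adjusted p = 0.00572), and these 3 receptors kept their calls with each of the 15 arrays left out in turn. *Npy1r*, a receptor of neuropeptide Y, held 7.80, 8.37, 7.67 and 7.96 in WAR N, against 7.84, 9.28, 9.24 and 9.32 in Wistar N. Its difference was -0.97 (standard error 0.27, adjusted p = 0.0202), and replicate 1 again lay among the WAR N arrays. Its call was lost without any of 5 arrays, Wistar N replicates 2, 3 and 4 and WAR N replicates 1 and 3 (adjusted p up to 0.0670). The calls of *Tacr3* (0.50) and *Npy4r* (0.26) were also lost without single arrays, any of 5 for the first and any of 12 for the second. The test of a difference between the stimulated and the naïve strain effect passed for 0 of the 21, against 0.103% of all genes.

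**Figure D4:**
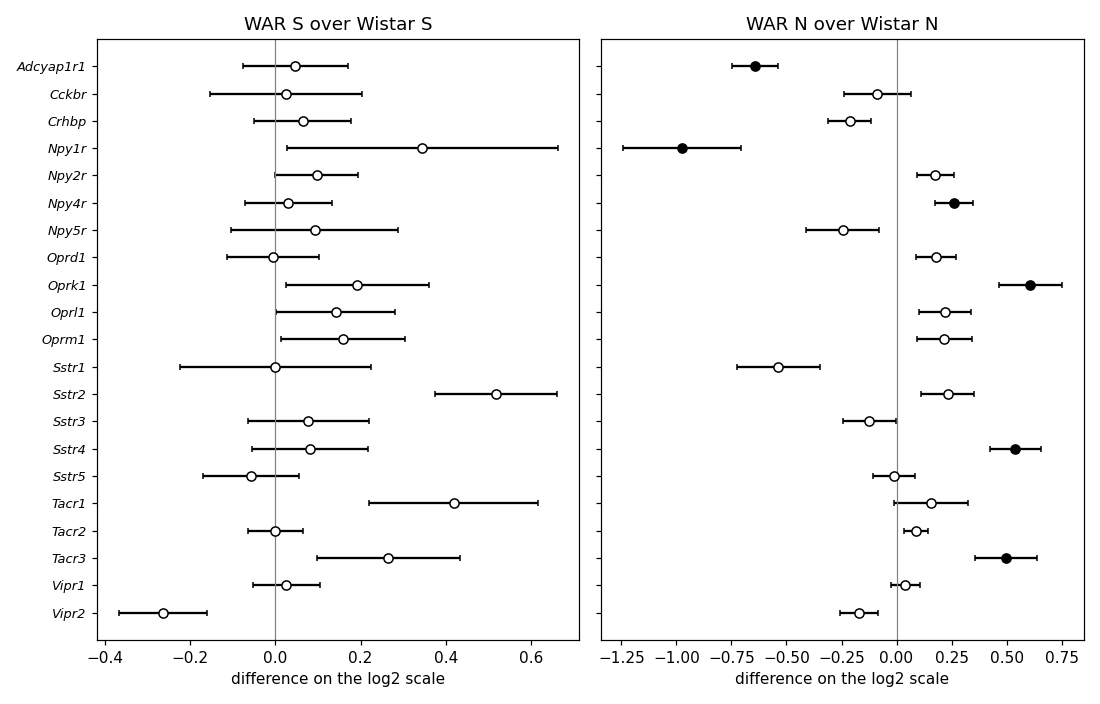
Difference between strains (horizontal axis, log2 scale) for the 21 measured receptor and binding protein genes of these peptides, in stimulated arrays (WAR S over Wistar S) and naïve arrays (WAR N over Wistar N). Bars are standard errors and filled circles an adjusted p under 0.05, of which there are 0 on the left and 6 on the right, with *Npy1r* (-0.97) and *Adcyap1r1* (-0.64) below 0.

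Of the genes that process and store peptides, 0 of 22 passed after sound, against 0.414% of all genes. At an unadjusted p under 0.05 there was 1, against 6.85%. In naïve rats 5 of 22 passed, 2 higher and 3 lower, against 20.9% of all genes, a count near that background. Without Wistar N replicate 1, 10 of 22 passed, 5 higher and 5 lower, against 41.1% of all genes. *Cpe*, the carboxypeptidase that trims most neuropeptides, held 11.44, 11.93, 10.96 and 11.57 in WAR N, against 12.00, 12.45, 12.24 and 12.52 in Wistar N. All WAR N arrays were below all Wistar N arrays, by -0.82 on average (standard error 0.18, adjusted p = 0.00553). *Pcsk2*, the convertase of most neuronal precursors, was lower by -0.47 (standard error 0.13, adjusted p = 0.0211), a call lost without Wistar N replicate 3 or WAR N replicate 3. *Ece2*, a peptidase, was higher by 0.30 (standard error 0.06, adjusted p = 0.00502). *Chgb* and *Scg2*, granins of the dense core vesicle, had means of 11.30 and 12.30 in WAR S, against 10.79 and 11.92 in Wistar S, with adjusted p = 0.687 and 0.737.

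Of 44 other neuropeptide precursors measured, 0 passed in stimulated rats, against 0.414% of all genes. At an unadjusted p under 0.05 there were 2, against 6.85%. In naïve rats 4 passed, *Ucn3*, *Ghrh* and *Gnrh1* higher and *Vgf* lower, against 20.9% of all genes. *Vgf*, an activity-regulated precursor, held 8.67, 8.62, 7.86 and 8.46 in WAR N, against 8.96, 10.26, 9.24 and 9.71 in Wistar N. The groups did not overlap, and the difference was -1.14 (standard error 0.29, adjusted p = 0.0152, and 0.0504 without WAR N replicate 3). *Ucn3*, a relative of *Crh*, was higher by 0.42 (standard error 0.10, adjusted p = 0.00904) and kept its call without any single array. Its signal was low, at 5.42 to 6.21 in naïve arrays, where the median over genes was 7.65 to 7.70. Among 25 alternatives, each array left out included, 2 gave a weaker result (adjusted p from limma up to 0.349). *Ghrh* (0.23) lost its call without any of 4 arrays and *Gnrh1* (0.25) without any of 10.

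Markers of the cells that make these peptides, and of other cells in the tissue, were read beside them. Of 12 GABAergic markers, 4 were lower in WAR N and 0 higher, against 9.38% and 11.6% of all genes. Without Wistar N replicate 1, 3 were lower and 0 higher, against 41.1% of all genes in either direction. After sound 0 passed, against 0.414%, and 1 had an unadjusted p under 0.05, against 6.85%. *Slc32a1*, the vesicular GABA transporter, held 8.26, 8.00, 7.48 and 8.22 in WAR N, against 8.75, 9.72, 9.23 and 8.82 in Wistar N, a difference of -1.14 (adjusted p = 0.00232). *Gad1* was lower by -0.83 (adjusted p = 0.00251), and both kept their calls without any single array. The calls of *Pvalb* and *Gata3* were lost without single arrays, any of 3 for the first and any of 13 for the second. The median of the 12 naïve differences was -0.07, against 0.02 for all genes. The mean log2 value over the 12 markers ran from 8.08 to 8.31 in WAR N, against 8.39 to 8.65 in Wistar N, and from 8.29 to 8.43 in WAR S, against 8.28 to 8.31 in Wistar S. Of 5 glutamatergic markers, 2 were lower in WAR N and 0 higher, against 9.38% and 11.6% of all genes, and 0 passed after sound, against 0.414%. Without Wistar N replicate 1, 2 were again lower, but 3 of the 5 naïve differences were positive, where 0 were with all arrays. The mean over the 5 ran from 8.72 to 8.94 in WAR N, against 8.96 to 9.29 in Wistar N. It ran from 9.05 to 9.18 in WAR S, against 9.10 to 9.29 in Wistar S. *Slc17a6* held 10.85, 11.15, 10.94 and 11.01 in WAR N, against 11.05, 11.62, 11.75 and 12.02 in Wistar N. Of 10 endothelial markers, 4 were higher in WAR S (also 4 without its replicate 4), against 0.414% of all genes in either direction, and 6 in WAR N, against 11.6% higher. Their mean ran from 8.39 to 8.85 in WAR S, against 7.68 to 7.75 in Wistar S, and from 8.26 to 8.81 in WAR N, against 7.55 to 8.32 in Wistar N. Of 9 astrocyte markers, 0 passed after sound, against 0.414% of all genes. At an unadjusted p under 0.05 there were 4, against 6.85%, and 0 of the 9 differences were positive (median -0.28). In naïve rats 4 were lower in WAR N, against 9.38% of all genes. The mean over the 9 ran from 11.13 to 11.40 in WAR S, against 11.63 to 11.67 in Wistar S. It ran from 10.90 to 11.17 in WAR N, against 11.29 to 11.54 in Wistar N. Without Wistar N replicate 1, 8 endothelial markers were higher in WAR N, and of the astrocyte markers 4 were lower and 1 higher. Of all genes, 41.1% passed there in either direction. No list has markers listed at 0, since RMA gives each probe set a value. These lists, too, were chosen with earlier results of these data known. The part of these cell types in the differences of the precursors was not tested.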

How the data were processed

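Total RNA of the IC was hybridized to Affymetrix rat gene arrays, and the authors deposited log2 values made with RMA (background correction, quantile normalization and 1 summary per probe set). The software version and genome build are not given in the sources used here. All 15 columns of sample values were used and 0 were left out. A single gene symbol stood beside 15310 of the 29214 probe sets, and 15279 of those were found by gene ID in the RefSeq table of GRCr8. The brightest probe set per gene gave 14506 genes.

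Strains were compared with limma 3.58.1 in R 4.3.3, fitting the means of the 4 groups to all 15 arrays. P-values were adjusted over the 14506 genes after Benjamini and Hochberg, and calls were made under 0.05. The step was tested on simulated data. Exact two-sided permutation tests over arrays were run for each of the 10 genes in each setting, 20 in all, with no further adjustment. The precursor genes and the 13 gene lists were chosen with earlier results of these data known. The text names all 10 genes, up to 6 called genes of each list discussed, up to 4 with the smallest p where none was called, and the 5 genes most like *Npy* and *Tac1*.

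Alternatives were the compared groups only, the replicate number or label set as a block, 1 label set only, the dimmest 25% of genes left out, all probe sets tested, array weights, robust moderation with a trend, cyclic loess, quantile normalization of all arrays, the fold threshold of the methods and each array left out in turn. The readings without Wistar N replicate 1 and, for stimulated arrays, without WAR S replicate 4 were chosen after seeing the data. The labels title the arrays as biological replicates. No source used here says whether an array held the RNA of a single rat, so p-values measure the spread between these arrays. In limma that spread was estimated over all 4 groups together. Naïve arrays thus enter the stimulated p-values and intervals, and stimulated arrays the naïve ones. The number of arrays limits the precision. Replicate numbers did not pair arrays, and the SAM test of the methods was not run.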

Additional observations from a re-analysis of the deposited data

Results flagged for a closer look

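For *Pnoc*, the strain difference of stimulated arrays exceeded that of naïve arrays by 1.39 on the log2 scale (standard error 0.23, adjusted p = 0.0430 from limma), which passed the test of the difference itself. It was the only one of the 10 genes to do so with all arrays, and the call was lost without any of 12 of the 15 arrays.

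The *Pdyn* value of WAR S replicate 3 (7.06) lay apart from the other 4 WAR S arrays, which all held 7.04. The distance is very small, and the identical values of the others come from the ties that the stimulated arrays share. It was 1 of 30 such checks of the 10 genes. Over all genes, this gap test set each single WAR S array apart in 2.81% to 5.90% of genes. For each single WAR N array it was 0.965% to 1.59%.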

How the results depend on the processing

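With all arrays, 60, 3037 and 15 genes passed in the stimulated comparison, the naïve comparison and the difference between them, and of the 10 precursor genes 0, 3 and 1. Fitted to the compared groups alone, 274 genes and 3 precursors (*Npy*, *Tac1* and *Penk*) passed in stimulated and 879 and 2 in naïve arrays. Array weights gave 1433 genes and 5 precursors in stimulated arrays, 4667 and 4 in naïve arrays, and 3353 and 5 for the difference. Within label set 1 the counts were 14, 217 and 0 genes, with 0 precursors in each, and within label set 2 there were 3775 genes and 5 precursors in naïve arrays. With all 29214 probe sets tested, 5355 probe sets passed in naïve arrays, 68 in stimulated arrays and 21 for the difference. For the difference, eBayes with trend and robust gave 9 genes and cyclic loess 42. A fold change of at least 2 with an unadjusted p of at most 0.05 gave 39 genes and 1 precursor in stimulated and 256 and 0 in naïve arrays. Leaving out each array in turn gave 7 to 261, 1987 to 5968 and 0 to 2956 genes, and 0 to 4, 2 to 6 and 0 to 5 precursors. The highest of each was found without Wistar N replicate 1. The cause of these changes was not tested.

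Replicate numbers do not pair arrays (correlation of deviations from the group means between -0.31 and 0.06), and with the replicate block 16, 2490 and 0 genes and 0, 2 and 0 precursors passed. The block also turned the stimulated difference of *Cck* to -0.0389 and the *Vip* difference between settings to 0.15, and the calls of *Penk* in naïve arrays (adjusted p = 0.0751) and of *Pnoc* for the difference (1.36, adjusted p = 0.208) were lost with it.

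Other values changed direction too. The stimulated difference of *Pdyn* was -0.0156 after cyclic loess and -0.0392 after quantile normalization. The naïve difference of *Adcyap1* was 0.10 within label set 1. That of *Tac1* was -0.14 within label set 2 and -0.0370 with array weights, and -0.13 to 0.28 with each array left out. For the difference between settings, *Penk* gave -0.11 with array weights and -0.16 to 0.21 with each array left out. *Vip* gave 0.0408 with the label set as a block, 0.0129 with array weights, 0.0219 after cyclic loess, 0.0244 after quantile normalization, and -0.0815 to 0.0610 with each array left out. Wistar S had 2 arrays, which limits the precision, and signal over background could not be recomputed from these values.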

Other observations

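Among the other neuropeptide precursors, the smallest p-values in stimulated arrays belonged to genes with higher means in WAR S. *Adm* had a mean log2 value of 7.47 in WAR S and 7.16 in Wistar S, *Tac3* 7.42 in WAR S and 7.03 in Wistar S, *Gal* 6.98 in WAR S and 6.50 in Wistar S, and *Nts* 6.81 in WAR S and 6.24 in Wistar S. None of the 4 passed across all genes (adjusted p = 0.536 to 0.860 from limma). The *Gal* mean was carried by WAR S replicate 4 (7.82, against 6.74 to 6.81 in the other 4), and without that array the difference was 0.27, where it was 0.48 with it. In naïve arrays without Wistar N replicate 1, 11 of the 44 other precursors passed, 9 higher and 2 lower in WAR N, against 41.1% of all genes.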
